A study of Mus musculus with 4 samples.

Results

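The genes described here are 6 matrix metalloproteinases (Mmp2, Mmp8, Mmp9, Mmp13, Mmp14 and Mmp19) and 3 tissue inhibitors of metalloproteinases (Timp1, Timp2 and Timp3), 9 of the 19938 genes that could be named on the array. They were chosen by gene symbol, from array probesets whose platform annotation held 1 symbol. Each of the 9 genes had 1 such probeset, so no choice between probesets was needed. The cells were macrophages grown from mouse bone marrow, and 4 arrays were hybridised. The groups were macrophages of the strain 4get/Stat6-/- cultured with IL-4, the same strain in medium, BALB/c wild type cultured with IL-4 and BALB/c wild type in medium, with 1 array each. Stat6 is a transcription factor switched on by IL-4 signalling. The allele 4get is a reporter of IL-4 expression that the labels give for the Stat6-/- strain and not for the wild type, so that the effects of the Stat6 deletion, the reporter and other strain differences cannot be told apart. All cells had grown for 7 days in 10% supernatant of L929 fibroblasts, a source of the growth factor M-CSF, were then cultured for 24 h with or without IL-4, and were sorted for the macrophage surface protein encoded by Adgre1. The sample protocols and the series text give the IL-4 concentration as 10 with different units, µg and mg per mL, and the number of mice behind each array is not given in the sources used here.

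Matrix metalloproteinases are zinc-dependent endopeptidases that cut collagens, gelatin and other proteins of the extracellular matrix, and also chemokines and growth factors. Most are secreted as inactive proenzymes and are activated by removal of a propeptide, while Mmp14 is anchored in the cell membrane. The tissue inhibitors bind the active site of the enzymes and block them, and Timp2 also takes part in the activation of the Mmp2 proenzyme by Mmp14. Macrophages are known as a source of several of these enzymes during tissue remodelling.

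Values are robust multi-array average (RMA) signals on the log2 scale, and a difference of 1 is 2-fold. With 1 array per group there was no replicate check and no test, and precision is limited by there being 1 array a group. A gene is said to have risen, fallen or passed the rule where the difference was at least 1 in size and the higher array reached 2.52, the floor, which was the median signal of all probesets with 1 symbol over the 4 arrays. Signals of different probesets are not comparable with each other, so levels are ordered only across the arrays of 1 gene. Stat6 gave signals of 4.25 in Stat6-/- cells with IL-4 and 4.54 in Stat6-/- cells in medium, against 6.68 and 7.34 in wild-type cells with IL-4 and in medium, so that both arrays labelled Stat6-/- were the lower ones. The macrophage markers Csf1r (10.25 to 10.87), Cd68 (10.32 to 10.69) and Lyz2 (11.40 to 11.87) were far above the floor on every array. All 10 of 10 markers listed for this cell type reached the floor. Others of them varied more between arrays, such as Cd14 (6.38 to 9.11), and 5 of the 10 fell with IL-4 in wild-type cells.

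The annotated promoters of 6 of the 9 genes were held in the RefSeq table used here (build GRCm38.p6), as windows of 250 bases before to 50 bases after the gene start. Those of Mmp8, Timp1 and Mmp14 are shown because these genes passed the rule in wild-type cells, and that of Mmp13 because it lies in the same gene cluster as Mmp8. Capitals mark matches to 4 motifs: the AP-1 motif TGANTCA, a STAT6-type motif of TTC and GAA with 4 bases between, a STAT-type motif of TTC and GAA with 3 bases between, and the TATA box TATAAA. The first 3 motifs read the same on both strands, and TATAAA was searched on the gene's strand. Sequences run 5′ to 3′.
Mmp8 (chr9:7558179-7558478, plus strand): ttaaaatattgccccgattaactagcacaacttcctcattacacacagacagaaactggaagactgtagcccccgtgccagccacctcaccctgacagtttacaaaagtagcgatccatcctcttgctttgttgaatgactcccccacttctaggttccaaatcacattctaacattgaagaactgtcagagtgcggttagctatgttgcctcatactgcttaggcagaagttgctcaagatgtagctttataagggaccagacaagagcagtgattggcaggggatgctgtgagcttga
Timp1 (chrX:20869916-20870215, plus strand): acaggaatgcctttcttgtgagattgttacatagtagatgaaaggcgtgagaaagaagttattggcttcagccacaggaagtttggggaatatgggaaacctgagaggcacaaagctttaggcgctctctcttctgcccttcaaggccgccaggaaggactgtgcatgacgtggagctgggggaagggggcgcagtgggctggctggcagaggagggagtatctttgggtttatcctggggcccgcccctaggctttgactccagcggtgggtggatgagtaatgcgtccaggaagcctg
Mmp14 (chr14:54431348-54431647, plus strand): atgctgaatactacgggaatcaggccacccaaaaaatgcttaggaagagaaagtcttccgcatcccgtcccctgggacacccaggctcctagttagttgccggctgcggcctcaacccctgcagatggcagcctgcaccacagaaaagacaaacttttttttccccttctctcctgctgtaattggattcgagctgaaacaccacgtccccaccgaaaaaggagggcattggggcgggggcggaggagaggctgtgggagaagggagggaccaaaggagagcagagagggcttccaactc
Mmp13 (chr9:7272264-7272563, plus strand): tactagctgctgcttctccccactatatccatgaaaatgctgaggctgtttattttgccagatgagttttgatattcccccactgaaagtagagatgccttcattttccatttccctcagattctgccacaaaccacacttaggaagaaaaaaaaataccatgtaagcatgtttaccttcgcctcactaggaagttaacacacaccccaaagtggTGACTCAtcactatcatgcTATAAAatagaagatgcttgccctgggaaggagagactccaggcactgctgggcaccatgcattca

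Of these windows only that of Mmp13 held a match: TGACTCA began 35 bases before the annotated start and TATAAA began 16 bases before it. The windows of Timp2 and Timp3 held none of the 4 motifs either. Over all 32851 promoter windows of the table, the AP-1 motif was found in 7.81%, the STAT6-type motif in 6.95%, the STAT-type motif in 8.3% and TATAAA in 8.32%. A match describes the letters only.

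The gelatinases, which cut denatured collagen and type IV collagen of basement membranes, are Mmp9 and Mmp2. Mmp9 had a signal of 3.77 in Stat6-/- cells with IL-4, 4.70 in Stat6-/- cells in medium, 8.74 in wild-type cells with IL-4 and 6.01 in wild-type cells in medium. The wild-type array with IL-4 was the highest by a wide margin, and both Stat6-/- arrays were below both wild-type arrays. Its range over the arrays, 4.97, was the widest among the 9 genes. In wild-type cells Mmp9 rose by 2.73 with IL-4, which is 6.64-fold. In bulk RNA a larger share of cells of a type and more RNA per cell cannot be told apart. In Stat6-/- cells the difference between IL-4 and medium was -0.92, in the other direction and short of the rule. Mmp2 had signals of 2.94 and 2.95 in Stat6-/- cells with IL-4 and in medium, against 3.15 and 2.86 in wild-type cells with IL-4 and in medium. These values lay just above the floor and within 0.29 of each other.

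The collagenases Mmp8 and Mmp13 cleave fibrillar collagen. Mmp8, best known as the collagenase of neutrophil granules, had a signal of 4.63 in Stat6-/- cells with IL-4, 4.30 in Stat6-/- cells in medium, 6.39 in wild-type cells with IL-4 and 5.01 in wild-type cells in medium. Wild-type cells with IL-4 were the highest, and wild-type cells in medium came next. With IL-4, Mmp8 rose by 1.38 in wild-type cells (2.60-fold), while the difference in Stat6-/- cells was 0.33. Mmp13, the main interstitial collagenase of rodents, had signals of 5.96 and 5.41 in Stat6-/- cells with IL-4 and in medium, against 6.61 and 5.71 in wild-type cells with IL-4 and in medium. Its IL-4 array was the higher in each genotype, by 0.56 in Stat6-/- cells and by 0.90 in wild-type cells, and neither difference passed the rule. In wild-type cells it passed with quantile normalization applied again (1.05) and with the intensity trend removed (1.10).

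Mmp14 is the membrane-type enzyme that cuts collagen at the cell surface and activates the Mmp2 proenzyme. Its signal was 6.92 in Stat6-/- cells with IL-4, 7.18 in Stat6-/- cells in medium, 7.71 in wild-type cells with IL-4 and 8.97 in wild-type cells in medium. Wild-type cells in medium were the highest, and the order of the arrays thus differed from that of Mmp9, Mmp8, Mmp13 and Mmp19, which were highest in wild-type cells with IL-4. With IL-4, Mmp14 fell by 1.25 in wild-type cells (2.38-fold). In Stat6-/- cells the difference was -0.26.

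Mmp19, a secreted metalloproteinase that cuts basement membrane proteins, had signals of 4.54 and 4.46 in Stat6-/- cells with IL-4 and in medium, against 6.09 and 5.09 in wild-type cells with IL-4 and in medium. Its difference with IL-4 in wild-type cells, 0.9995, fell short of the rule by less than 0.01. It passed with quantile normalization applied again (1.16) and with the intensity trend removed (1.22). In Stat6-/- cells the difference was 0.08.

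Among the inhibitors, Timp1, a secreted inhibitor that can bind the Mmp9 proenzyme, was above the floor on 1 array. Its signal was 2.31 in Stat6-/- cells with IL-4 and 2.47 in Stat6-/- cells in medium, against 3.85 in wild-type cells with IL-4 and 2.43 in wild-type cells in medium. Wild-type cells with IL-4 stood apart and the other 3 arrays were within 0.16 of each other. Against the floor, Timp1 rose at least 2.51-fold with IL-4 in wild-type cells. Timp1 overlaps the gene Syn1, which encodes a synaptic vesicle protein, in the RefSeq annotation. The separate Syn1 probeset had signals of 2.85 and 3.18 in Stat6-/- cells with IL-4 and in medium, against 3.92 and 2.85 in wild-type cells with IL-4 and in medium. It thus rose with IL-4 in wild-type cells as well, by 1.07, and whether the overlap of the genes bears on either signal was not tested. Syn1 was singled out for its position after the values were seen.

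Timp2 had a signal of 8.15 in Stat6-/- cells with IL-4, 7.98 in Stat6-/- cells in medium, 8.10 in wild-type cells with IL-4 and 7.88 in wild-type cells in medium. All 4 arrays lay within 0.27 of each other, and the IL-4 arrays were slightly above their medium arrays, by 0.18 in Stat6-/- cells and by 0.22 in wild-type cells. Timp3, an inhibitor that stays bound to the matrix and also blocks the shedding protease Adam17, was under the floor on all arrays, with signals between 1.54 and 1.69. Timp3 overlaps Syn3 in the annotation, and the Syn3 probeset was under the floor as well, between 1.76 and 2.13. The annotation also held overlapping genes for Mmp19 (Tmem198b), Timp2 (Cep295nl), Mmp8 (Gm31751) and Mmp2 (Gm45472), whose signals were not examined.

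**Figure D1:**
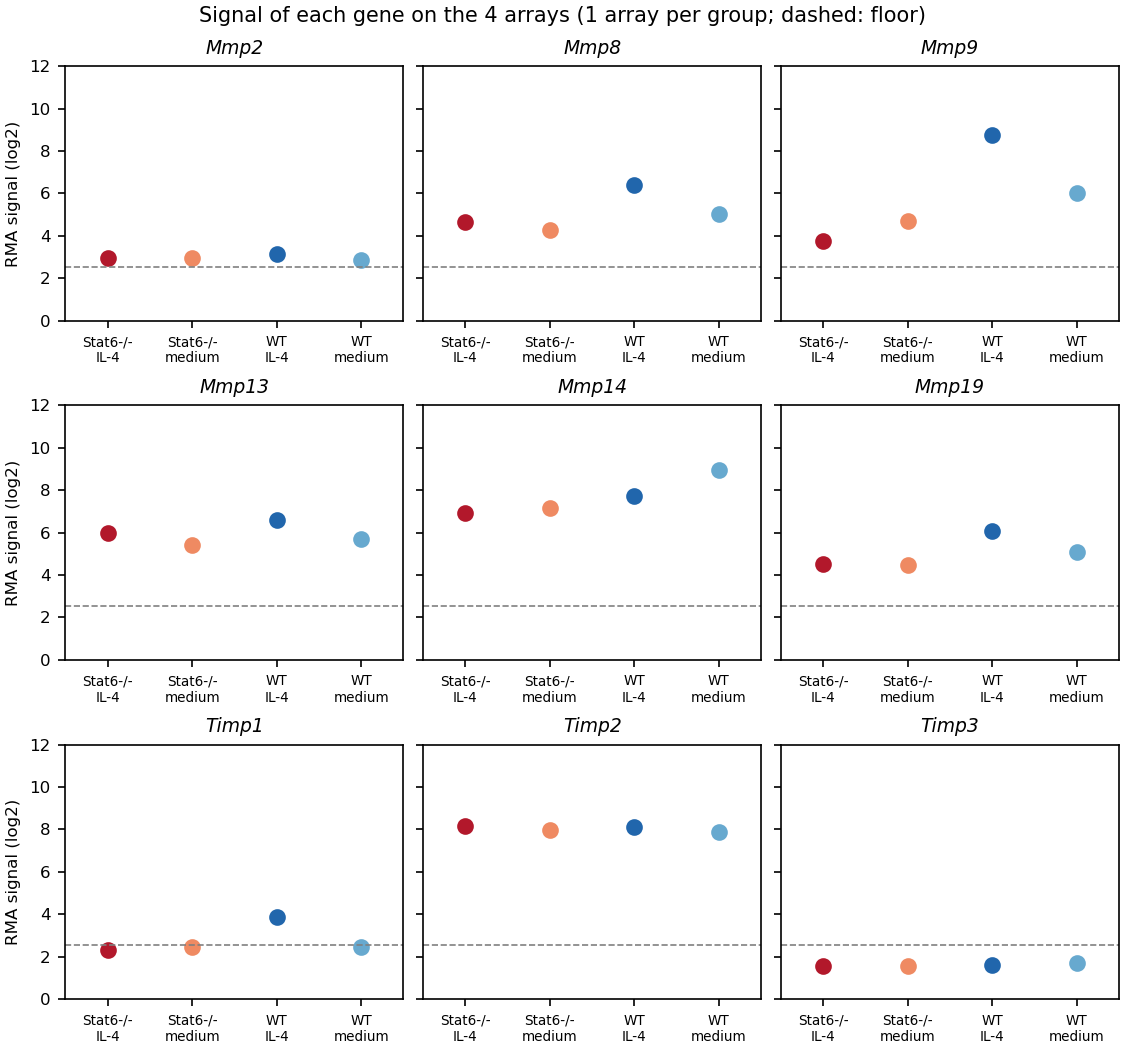
RMA signal (log2, vertical axis) of the 9 genes on the 4 arrays, 1 point per array, with the floor of 2.52 as a dashed line. Mmp9 spans 3.77 to 8.74 and peaks in wild-type cells with IL-4, Mmp14 peaks in wild-type cells in medium, Timp2 is level near 8, and Timp3 is under the floor throughout.

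IL-4 in wild-type macrophages raised Mmp9, Mmp8 and Timp1 and lowered Mmp14. That was 4 of the 9 genes, 3 higher and 1 lower, with 8 of the 9 at the floor or above. Of all 10282 genes at the floor, 9.74% passed the rule, 2.96% higher and 6.78% lower. With quantile normalization applied again the genome-wide calls were 403 higher and 488 lower, in place of 304 and 697. The median difference of the 8 genes was 0.95, beside -0.11 over all genes at the floor. Mmp9 had the 26th highest difference of the 10282 genes, Mmp8 the 136th and Mmp19 the 306th, while Mmp14 had the 372nd lowest.

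The same treatment of Stat6-/- macrophages moved 0 of the 9 genes past the rule, with 7 of them at the floor. The background was low as well, at 0.355% of 10410 genes (0.24% higher), so that a count of 0 was near the background. The gene with the largest difference in size was Mmp9 (-0.92), which had the 27th lowest difference of the 10410 genes. Mmp13 (0.56) had the 352nd highest. The median difference was 0.08 over the 7 genes, against -0.05 over all genes at the floor.

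**Figure D2:**
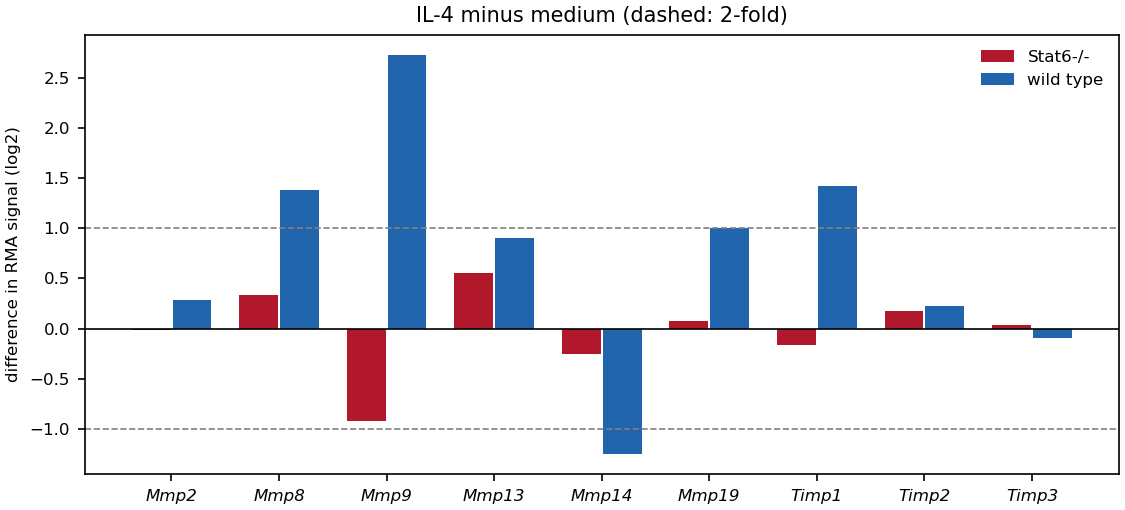
Difference in RMA signal between IL-4 and medium (log2, vertical axis) for each gene in Stat6-/- cells (red) and wild-type cells (blue), 1 array per group, with the 2-fold rule as dashed lines. In wild-type cells Mmp9 (2.73), Mmp8 (1.38) and Timp1 (1.42) lie above the upper line and Mmp14 (-1.25) below the lower one; Timp1 was under the floor in wild-type cells in medium and on both Stat6-/- arrays, so that its bars are no measured sizes.

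Without IL-4, Stat6-/- macrophages had less Mmp14 and Mmp9 than wild type. Mmp14 was 3.46-fold lower (-1.79), the 9th lowest difference of 10299 genes, and Mmp9 was 2.49-fold lower (-1.31), the 26th lowest. These were 2 of the 9 genes, both lower, where 1.45% of all genes passed the rule and 1.15% did so as lower. The genome-wide split was 31 higher and 118 lower, or 42 and 71 with quantile normalization applied again. Mmp8 (-0.71), Mmp19 (-0.63) and Mmp13 (-0.30) were also on the lower side without passing the rule, and Mmp2 (0.09) and Timp2 (0.10) differed little. The median over the 7 genes at the floor was -0.63, against -0.11 over all genes.

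With IL-4, the lower genes in Stat6-/- macrophages were Mmp9, Mmp8, Mmp19 and Timp1. Mmp9 was 31.3-fold lower (-4.97), the 6th lowest of 10433 genes. Mmp8 was 3.38-fold lower (-1.76), Mmp19 was 2.93-fold lower (-1.55), and Timp1 was at least 2.51-fold lower against the floor. This was 4 of the 9 genes, all lower, beside 8.84% of genes past the rule in either direction, 4.01% higher and 4.83% lower. Mmp14 (-0.80), Mmp13 (-0.65) and Mmp2 (-0.21) did not pass, and Timp2 (0.05) was nearly level. For Mmp14 the gap between the genotypes was thus wider in medium than with IL-4, and for Mmp9 it was wider with IL-4. The 4 comparisons share arrays with each other, so that a high or low array enters more than 1 of them.

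**Figure D3:**
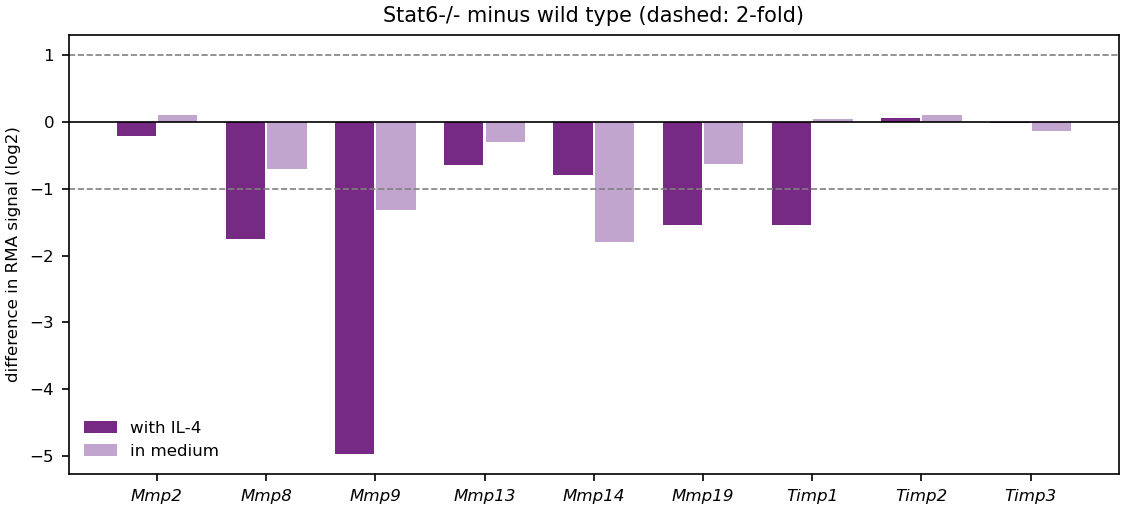
Difference in RMA signal between Stat6-/- and wild-type cells (log2, vertical axis) for each gene, with IL-4 (dark) and in medium (light), 1 array per group, with the 2-fold rule as dashed lines. Mmp9 reaches -4.97 with IL-4, while Mmp14 is the lowest in medium at -1.79.

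The IL-4 effect in wild-type cells minus that in Stat6-/- cells was 3.65 for Mmp9, 1.58 for Timp1 and 1.04 for Mmp8, all past the rule. For Timp1 it was 1.33 with values under the floor raised to it. Of all 10798 genes 8.97% passed the rule, 3.2% of all genes with a positive and 5.77% with a negative difference. The split was 346 positive and 623 negative, or 420 and 461 with quantile normalization applied again. Mmp14 (-0.9954) and Mmp19 (0.92) were close to the rule: Mmp14 passed it with quantile normalization applied again (-1.04) and with arrays shifted to one median (-1.01), and Mmp19 passed it with quantile normalization applied again (1.04) and with the intensity trend removed (1.07). Mmp13 (0.35), Mmp2 (0.30) and Timp2 (0.05) did not come near it. This difference had no test.

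**Figure D4:**
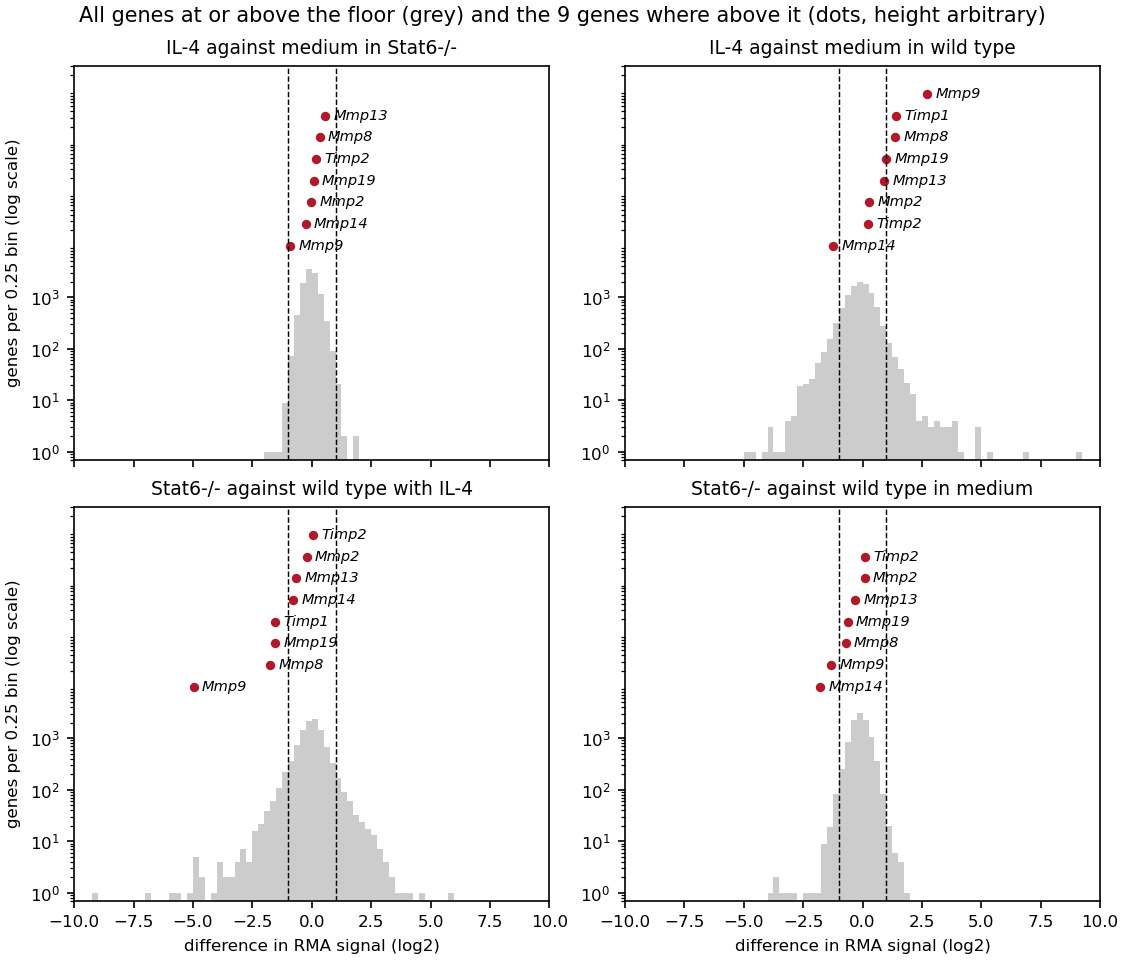
Number of genes at or above the floor per bin of 0.25 in the log2 difference (grey, log scale) in the 4 comparisons, with those of the 9 genes at or above the floor as dots at their difference; the height of a dot has no meaning, and dashed lines mark the 2-fold rule. The spread of all genes is narrow for IL-4 in Stat6-/- cells, where 0.355% passed the rule, and wide for IL-4 in wild-type cells, where 9.74% did.

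Among the genes named by probesets with 1 symbol were 17 other Mmp and Timp genes. Of these 14, Timp4 and the stromelysins Mmp3 and Mmp10 among them, were under the floor on all arrays. The 3 others were Mmp12, Mmp27 and Mmp25. Mmp12, the macrophage elastase, had a signal of 7.85 in Stat6-/- cells with IL-4, 6.41 in Stat6-/- cells in medium, 10.73 in wild-type cells with IL-4 and 9.56 in wild-type cells in medium. It rose with IL-4 in each genotype, by 1.44 in Stat6-/- cells and by 1.16 in wild-type cells. Of the 9 genes described above 0 passed the rule with IL-4 in Stat6-/- cells. Between genotypes Mmp12 was lower in Stat6-/- cells, with differences of -2.88 with IL-4 and -3.15 in medium.

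Mmp27, a less studied relative of the stromelysins, had signals of 4.14 and 3.52 in Stat6-/- cells with IL-4 and in medium, against 2.37 and 3.45 in wild-type cells with IL-4 and in medium. Here wild-type cells with IL-4 were the lowest array. The difference with IL-4 in wild-type cells was -1.08, but the IL-4 array was under the floor, and against the floor Mmp27 was at least 1.90-fold lower, a bound short of the rule. The difference was -0.97 with quantile normalization applied again, also short of it. With IL-4, Mmp27 was at least 3.07-fold higher in Stat6-/- cells than in wild type. Mmp25, a metalloproteinase anchored to the membrane by a lipid, stayed near the floor with signals of 2.24 and 2.65 in Stat6-/- cells with IL-4 and in medium, against 2.88 and 1.91 in wild-type cells with IL-4 and in medium.

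**Figure D5:**
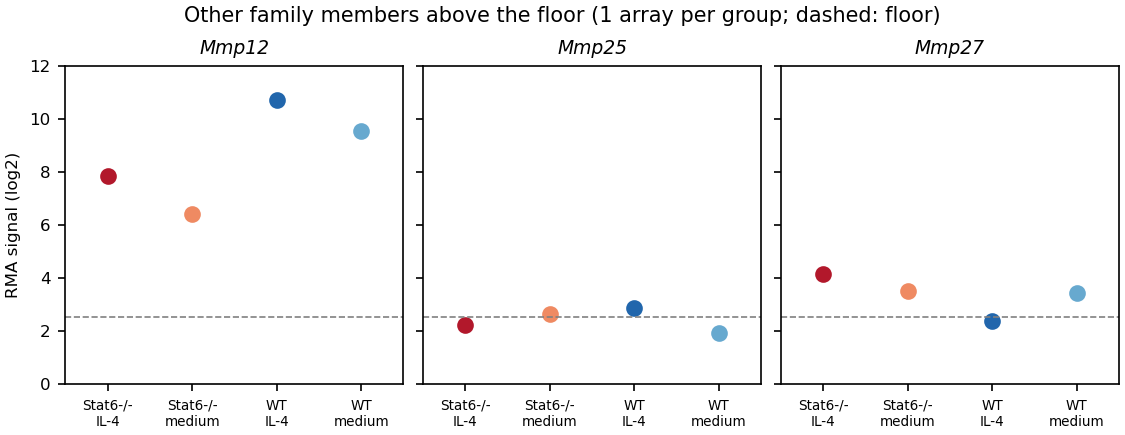
RMA signal (log2, vertical axis) of Mmp12, Mmp25 and Mmp27 on the 4 arrays, 1 point per array, with the floor of 2.52 as a dashed line. Mmp12 is higher on both wild-type arrays (10.73 and 9.56) than on both Stat6-/- arrays (7.85 and 6.41), and Mmp27 is lowest in wild-type cells with IL-4 (2.37).

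Mmp8 and Mmp13 lie in a cluster of 10 neighbouring metalloproteinase genes on chromosome 9, in the order Mmp13, Mmp12, Mmp1b, Mmp3, Mmp1a, Mmp10, Mmp8, Mmp27, Mmp20 and Mmp7 in the RefSeq annotation. Mmp13, Mmp12, Mmp8 and Mmp27 reached the floor and the other 6 did not on any array. The 4 genes with signal did not follow 1 pattern. Mmp8 and Mmp27 are next to each other, and wild-type cells with IL-4 were the highest array for Mmp8 and the lowest, under the floor, for Mmp27. The other listed genes lie on chromosomes 2 (Mmp9), 8 (Mmp2), 10 (Mmp19 and Timp3), 11 (Timp2), 14 (Mmp14) and X (Timp1).

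Other genes around these enzymes were taken from lists of activators, inhibitors and receptors, related proteases, matrix substrates and transcription factors. Beside the counts of these lists and of the marker lists below stand the shares of all genes at the floor. With IL-4 in wild-type cells these were 2.96% higher and 6.78% lower, with a median difference of -0.11. Among the activators and proconvertases, 8 of 16 reached the floor in wild-type cells, 1 rose with IL-4 and 0 fell, with a median of -0.36. The gene was Plaur, the urokinase receptor, with signals of 5.25 and 4.88 in Stat6-/- cells with IL-4 and in medium, against 6.78 and 5.76 in wild-type cells with IL-4 and in medium. Its difference with IL-4 in wild-type cells was 1.02. Urokinase itself, Plau, which starts the plasmin cascade that activates several proenzymes, was 2.75-fold lower in Stat6-/- cells in medium (6.20, against 7.66 in wild type) and nearly level with IL-4 (6.95, against 6.91 in wild type). It was the 1 gene of this list past the rule in medium and was chosen after its values were seen.

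Of 16 other inhibitors and receptors on the array, 10 reached the floor in wild-type cells, 2 rose with IL-4 and 0 fell, with a median of -0.18. Spint2, a membrane-bound inhibitor of serine proteases, had signals of 2.59 and 2.76 in Stat6-/- cells with IL-4 and in medium, against 4.47 and 2.80 in wild-type cells with IL-4 and in medium. Itgb3, an integrin chain whose dimer with Itgav can bind Mmp2, rose at least 3.01-fold with IL-4 in wild-type cells, where it was at 4.11 with IL-4. It was under the floor on the other 3 arrays. Reck and A2m, inhibitors of several metalloproteinases, were under the floor on all arrays.

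Of 15 ADAM and ADAMTS proteases on the array, 9 reached the floor, and with IL-4 in wild-type cells 1 passed the rule as higher, Adamts9 (1.05), and 1 as lower, Adam19 (-1.05), with a median of -0.23. Neither call was stable: Adam19 was at -0.85 with quantile normalization applied again and at -0.90 with the intensity trend removed, and Adamts9 was at 0.15 over the mean of its probesets. Of 21 matrix substrates on the array, 13 reached the floor and 1, the gene of fibronectin, Fn1, rose with IL-4 in wild-type cells. Fn1 had signals of 3.70 and 3.03 in Stat6-/- cells with IL-4 and in medium, against 9.52 and 6.72 in wild-type cells with IL-4 and in medium. It was 56.5-fold lower in Stat6-/- cells with IL-4 and 12.8-fold lower in medium.

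The transcription factor list held AP-1 components, which are known to bind promoters of several metalloproteinase genes. All 19 of its genes on the array reached the floor in wild-type cells. With IL-4 2 of them rose and 3 fell, beside 2.96% and 6.78% of all genes, with a median of 0.16. Jund (1.28) and Batf3 (1.97) rose, and Fosb (-2.11), Elk3 (-1.70) and Fos (-1.38) fell. Fos had signals of 8.12 and 7.65 in Stat6-/- cells with IL-4 and in medium, against 6.76 and 8.13 in wild-type cells with IL-4 and in medium. Wild-type cells with IL-4 were thus the lowest array for Fos, and also for Fosb and Elk3. They were the highest array for Jund and Batf3, so the list did not follow 1 pattern. With IL-4 in Stat6-/- cells 0 genes of the 5 lists passed the rule, where 0.355% of all genes did, so that 0 was near the background.

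Mmp8 and Mmp9 are also known from neutrophils, Mmp9 from osteoclasts, and Mmp2, Mmp14, Timp2 and Timp3 from fibroblasts, so markers of these cells were read on the same arrays. Of 12 neutrophil markers, 4 reached the floor on any array, and Mpo, Elane, Ly6g, Camp, Ltf and S100a8 did not. Ngp, a granule protein gene, had signals of 1.99 and 2.85 in Stat6-/- cells with IL-4 and in medium, against 1.76 and 2.79 in wild-type cells with IL-4 and in medium. It passed the rule as lower with IL-4 in wild-type cells (-1.04), but not with values raised to the floor. The summed signal of the list on the linear scale was 49.1 and 53.5 in Stat6-/- cells with IL-4 and in medium, against 49.5 and 49.6 in wild-type cells with IL-4 and in medium. Between 27.7 and 29.8 of it came from the 8 markers under the floor on all arrays. Of 10 fibroblast markers 5 reached the floor, and their summed signal was 51.9 and 53.9 in Stat6-/- cells, against 58.4 and 48.7 in wild-type cells, each with IL-4 and in medium. One of them, Postn, rose with IL-4 in wild-type cells (3.55, against 1.72 in medium), and Pdgfra, Pdgfrb, Dcn and Lum were under the floor on all arrays.

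Some osteoclast markers differed between the groups. Of 9 such markers 7 reached the floor, and Calcr and Oscar did not on any array. Dcstamp, Ocstamp and Itgb3 rose with IL-4 in wild-type cells, 3 of 7 at the floor, beside 2.96% of all genes. Atp6v0d2 rose with IL-4 in Stat6-/- cells (1.18), 1 of 5 at the floor, beside 0.24% of all genes. Between genotypes 6 of 7 at the floor passed the rule as lower in Stat6-/- cells with IL-4, beside 4.83% of all genes, and 3 of 6 in medium, beside 1.15%. Those in medium included Ctsk, which was under the floor in Stat6-/- cells (2.01, against 3.52 in wild type). Against the floor Ctsk was at least 1.99-fold lower in medium, a bound short of the rule. In medium Ocstamp (0.20) was on the higher side without passing it, near the floor at 2.63 in Stat6-/- cells and 2.43 in wild-type cells. Itgb3 was under the floor on both medium arrays. With IL-4, Nfatc1 (0.76) was on the higher side without passing the rule. Itgb3 is also on the list of inhibitors and receptors. The summed linear signal of the list was 193 and 122 in Stat6-/- cells with IL-4 and in medium, against 597 and 343 in wild-type cells with IL-4 and in medium. Of these sums Atp6v0d2 gave 107 and 47.3 in Stat6-/- cells, against 314 and 234 in wild-type cells, since a sum follows its brightest probesets. Some macrophage markers moved as well: 5 of 10 fell with IL-4 in wild-type cells and 0 rose, beside 6.78% and 2.96% of all genes. Those that fell were Adgre1, whose protein was used for the sort, Mertk, Fcgr1, Cd14 and Cx3cr1. Mrc1 (0.70) was on the higher side, and Csf1r (-0.62) and Lyz2 (-0.41) on the lower side, without passing the rule. The summed linear signal of all 10 was 10052 and 10170 in Stat6-/- cells with IL-4 and in medium, against 7511 and 11100 in wild-type cells with IL-4 and in medium. Of these sums Lyz2, the brightest, gave 3753 and 3432 in Stat6-/- cells, against 2710 and 3609 in wild-type cells. The part of either marker list in the differences of the metalloproteinase genes was not tested.

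For the 5 genes that passed the rule in at least 1 comparison of a pair of arrays, the genes with the most similar pattern were sought. The search covered 10790 others at the floor on at least 1 array. Likeness was the Euclidean distance between log2 profiles over the 4 arrays after each gene's own mean was subtracted. Nearest to Mmp9 were Dcstamp (0.83), Slc7a11 (0.92) and Egr2 (1.09), and these distances were the largest of the 5 searches. Nearest to Mmp8 were Cd74 (0.07), Eif5a (0.12) and Cdk18 (0.13). Nearest to Mmp19 were Chst11 (0.05), Lss (0.09) and Dcbld2 (0.10), and to Timp1 Hsd17b7 (0.06), Rasgrp1 (0.10) and Nop16 (0.10). Mmp14 had the neighbours Olfml3 (0.35), Slc44a1 (0.39) and Mefv (0.57). Some of these distances rest in part on values under the floor. Dcstamp, Slc7a11 and Chst11 were under it on both Stat6-/- arrays, and Timp1 reached it on 1 array. The distances describe these 4 arrays only.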

How the data were processed

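Gene expression was measured by hybridisation of biotin-labelled RNA, 200 ng per array, to 4 whole-transcript arrays, 1 per combination of genotype and culture. The deposited values are log2 signals of single probesets, made by the authors with RMA in Affymetrix Expression Console, per the submitters' processing notes. The software version, its settings and the genome build behind the design were not given in the sources used here. That the scale is log2 was read from the range of the values. The deposited medians over all probesets differed slightly between arrays, from 2.23 to 2.29.

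The platform annotation paired 21789 of 35557 probesets with 1 symbol and 1621 with several, and 12147 were unnamed here. Each of 19938 genes was represented by its probeset with the highest mean over the 4 arrays, and 10798 reached the floor (the 50th percentile of the named probesets) on at least 1 array. Differences, counts and ranks were computed with pandas 2.3.3. The calls for IL-4 in wild-type cells were checked on simulated data, with changes larger than the rule in genes well above the floor. The simulated noise was a chosen value, since without replicates it could not be estimated. The check thus covers the computation and not how often single arrays differ by chance. Ranks, changes in genes near the floor and differences close to the rule were not checked in this way. Alternatives were a shift of all arrays to one median, quantile normalization applied again, removal of the intensity trend (lowess, fraction 0.3, statsmodels 0.14.6), no floor, a floor at the 75th percentile, values raised to the floor, the mean of all probesets of a gene and a 1.5-fold rule. RefSeq annotation of GRCm38.p6 served for gene order, overlaps and promoter windows. Named genes were the 9 members, Stat6, other Mmp and Timp genes at the floor, up to 6 genes a list that passed the rule with IL-4 in either genotype, and the 3 nearest profiles of each member that passed it; marker genes were named for their cell types. The genes and the lists were chosen with earlier results of these data known.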

Additional observations from a re-analysis of the deposited data

Results flagged for a closer look

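The IL-4 effects of 23 genes were set side by side in both genotypes. They were the listed members, the other Mmp and Timp genes at the floor, and the list genes named for passing the rule with IL-4. Of the 22 that reached the floor on at least 1 array, 8 had opposite signs. Timp3, under the floor throughout, was left out of this count. Plau and Syn1, chosen after their values were seen, were not among the 23. They also had opposite signs: -0.76 in wild-type and 0.74 in Stat6-/- cells for Plau, and 1.07 and -0.33 for Syn1. With 1 array per group these differences were not tested, and signs of small differences carry little. The IL-4 effect in wild-type cells minus that in Stat6-/- cells was 3.65 for Mmp9, 1.58 for Timp1, 0.30 for Mmp2, 1.38 for Mmp25 and -1.70 for Mmp27. For Mmp2 the effect in Stat6-/- cells was -0.02, and for Timp1 both Stat6-/- arrays were under the floor. For Mmp25 the difference was 0.48 with values raised to the floor. Among list genes they were 1.83 for Spint2, -2.36 for Fosb and -1.84 for Fos.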

How the results depend on the processing

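The differences of the 9 genes were recomputed in 5 comparisons under 8 alternatives, 360 values in all, of which 340 kept their side of the rule, 17 came to pass it, 3 no longer passed it and 0 that had passed it changed sign. The 3 were those of Timp1 with a floor at the 75th percentile, 4.65, which its highest signal did not reach. Of the named list genes, Itgb3, Spint2 and Adamts9 also lost their calls there. So did Mmp27, called lower with IL-4 in wild-type cells and higher in Stat6-/- cells with IL-4. Mmp25 and Mmp27 lost their calls for the difference of IL-4 effects as well. Jund, called lower in Stat6-/- cells with IL-4, was at -0.90 with quantile normalization applied again and with the intensity trend removed. The IL-4 difference of Mmp9 in wild-type cells ran from 2.73 to 2.86 and that of Mmp14 from -1.26 to -1.14. The number of genes past the rule moved by over 1.5 times in 4 cases. With the 1.5-fold rule it was 1 for IL-4 in Stat6-/- cells (0 with the 2-fold rule), 4 for the genotypes in medium (against 2) and 5 for the difference of IL-4 effects (against 3), and that last count was also 5 with quantile normalization applied again. With the 1.5-fold rule the genome-wide counts were 2907 for IL-4 in wild-type cells, 596 for IL-4 in Stat6-/- cells, 1114 for the genotypes in medium, 2398 with IL-4 and 2830 for the difference of effects, against 1001, 37, 149, 922 and 969 with the 2-fold rule. With a floor at the 75th percentile they were 20 for IL-4 in Stat6-/- cells and 93 for the genotypes in medium. Quantile normalization applied again moved the median difference of all genes at the floor by 0.13 for IL-4 in wild-type cells and by 0.13 for the genotypes in medium, and removal of the intensity trend by 0.12 and 0.11. Removal of the intensity trend gave 418 genes higher and 490 lower for IL-4 in wild-type cells, and 408 and 472 for the difference of effects. No paired analysis was possible because each group had 1 array, and for the same reason no array could be left out.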
